A study of Mus musculus with 12 samples.

Results

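The experiment described here compared formaldehyde-fixed paraffin sections with formaldehyde-fixed frozen sections of the mouse hippocampus by photo-isolation chemistry (PIC). It holds 24 of the 48 replicates of the study, in 6 of its 12 libraries. The members are the 12 replicates labelled PFA_Paraffin_TE and the 12 labelled PFA_Frozen_TE, chosen by their labels and by no measured value. Each section type contributed 4 replicates of CA1, 4 of CA3 and 4 of the dentate gyrus (DG). All groups shared the same mice by description, which were male ICR mice aged 8 weeks, and the same fixative, paraformaldehyde (PFA), and all sections were permeabilized with TE buffer. Frozen sections were washed free of embedding compound, whereas paraffin sections were dewaxed in D-limonene and rehydrated through ethanol, and both were then fixed again in PFA on the slide. The region called CA3 in the sample titles appears as CA2 in the series' own design text, and the titles were followed. Each region and section type was sequenced as 1 library that pooled 4 barcoded replicates, so within a region the library and the section type cannot be told apart. The labels do not name the animal behind a replicate, although the study calls the replicates biological, and p-values here measure the spread between replicates, which may be technical. Replicates of the same number deviated together across the regions of a section type (median correlation 0.087 over 12 pairs of fixed frozen and 0.12 over 12 pairs of paraffin replicates, against -0.050 and -0.039 for 36 pairs of other numbers each), so the 12 replicates of a section type may not be 12 independent samples.

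In PIC, reverse transcription primers that carry a light-sensitive cage are applied to a tissue section, and cDNA is made in place from all cells of the section. Light is then projected onto a chosen area, the cage is removed there, and only cDNA of that area can be amplified into a CEL-seq2 library, in which every captured molecule carries a unique molecular identifier (UMI). Primers of this kind bind poly(A) tails and other runs of A. PFA links proteins to each other and to RNA through methylene bridges, and paraffin embedding adds dehydration in alcohol, an organic solvent and warm wax. RNA from paraffin blocks is widely known to be shorter than RNA from frozen tissue. In the hippocampus, CA1 and CA3 are layers of pyramidal neurons and DG is a layer of granule neurons, with glia, interneurons, vessels and myelinated axons among them.

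Paraffin sections gave 35932 to 223055 UMIs per replicate (median 67528) and fixed frozen sections 52800 to 307145 (median 122520). Genes with at least 1 UMI numbered 7777 to 13741 in paraffin and 7739 to 13053 in fixed frozen replicates, so that the ranges overlapped for both measures. A count of 0 in a replicate allows up to 3 UMIs, which corresponds to between 9.77 and 83.5 CPM (UMIs scaled to a common library total) over the 24 replicates, and this floor covers counting error only. The highest count of any gene in a replicate was 4036, for the mitochondrial ribosomal RNA mt-Rnr2, close to the 4096 different UMIs of 6 bases that exist. Counts close to that limit understate the number of molecules.

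Of 12189 genes with at least 10 UMIs over the 24 replicates, 1595 (13.1%) were higher in paraffin sections and 1842 (15.1%) were lower, by edgeR's quasi-likelihood test with region as a covariate at a Benjamini-Hochberg adjusted p under 0.05. With replicates of the same number summed over the regions, 4 sums against 4, 1479 were higher and 1562 lower. In the fit of all 24 replicates, more than 2-fold changes made up 1228 of the higher and 948 of the lower genes. The sign was the same in all 3 regions for 1426 of the higher and 1725 of the lower genes. The median log2 fold change over all tested genes, paraffin over fixed frozen, was 0.02. The balance between both directions depended on the scaling of the libraries. With TMM, 46.4% of the calls were higher in paraffin, against 63.1% with DESeq2, 65.7% with DESeq2 size factors in edgeR and 59.5% with total UMIs. These scalings moved the median of all genes to 0.26, 0.22 and 0.15. Medians of gene groups are given below on the TMM scale, and under each of these scalings the group medians kept their sign relative to the median of all genes, except for stress response genes (-0.14, and 0.03 with DESeq2), splicing factors (0.01, and -0.02 with DESeq2), cholesterol synthesis genes (0.004, and -0.02 with DESeq2) and Zfp genes (0.01, and -0.003 with DESeq2 size factors). Counts of called genes in a group also depend on the scaling and are given with DESeq2 too where the larger of both directions moved by over 1.5 times or the balance turned. The levels in TE-permeabilized fresh-frozen sections, which were not fixed before sectioning, are set beside some values without a test (12 replicates).

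The direction of change went with the level of a gene. When the tested genes were divided into 5 equal bins of mean CPM, the median log2 fold change was 0.37 in the bin of least abundant genes and -0.30 in the bin of most abundant genes. In the lowest bin 255 genes were higher and 65 lower in paraffin, and in the highest bin 374 were higher and 979 lower. Bins and changes come from the same replicates, and genes of low level could pass the filter on low counts through their paraffin counts alone. For bins only TMM values are given, where the median of all genes was 0.02 against 0.26 with DESeq2. Spearman's rho between mean CPM and log2 fold change was -0.25 across genes, which are not independent replicates and which share the 6 libraries and their depth.

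**Figure D1:**
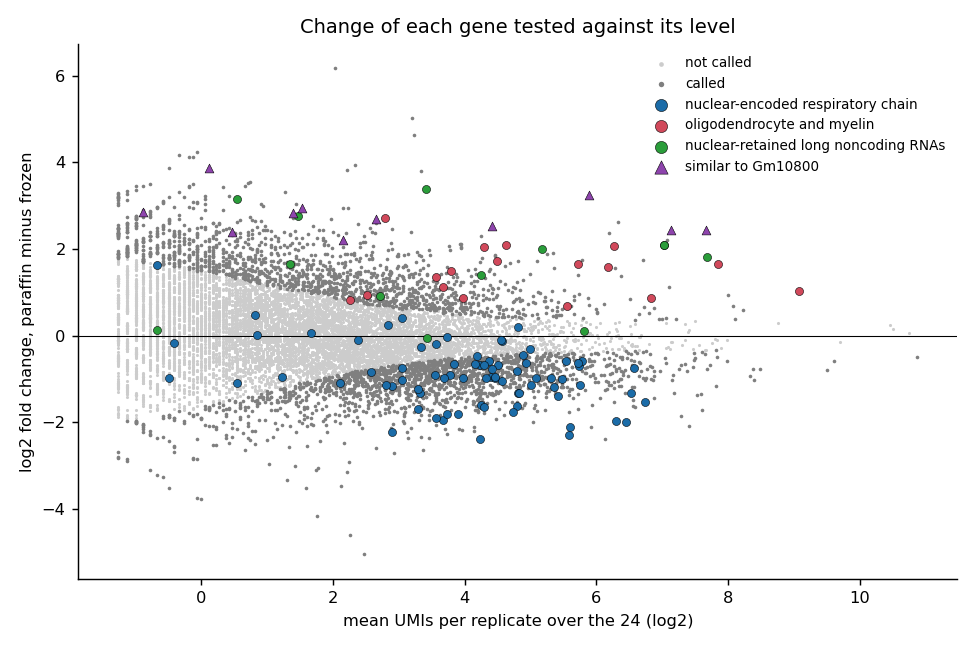
Log2 fold change of paraffin over fixed frozen sections (vertical) against the log2 mean UMIs per replicate (horizontal) for each of the 12189 tested genes, with genes of 4 groups in colour. Most genes of the nuclear-encoded respiratory chain lie below 0 (58 of 77 called lower, 0 higher), most nuclear-retained long noncoding RNAs above it (10 of 13 called higher), and the oligodendrocyte markers (17 tested) and genes similar to Gm10800 (11 tested) above it.

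UMIs shifted from nuclear protein-coding genes to noncoding classes. Nuclear protein-coding genes took 87.9% ± 1.99 (SD, n = 12) of the UMIs in fixed frozen and 84.4% ± 2.50 in paraffin replicates (adjusted p = 0.0017, two-sided exact permutation test within regions, Benjamini-Hochberg over 12 classes). Long noncoding RNAs (lncRNAs) ranged from 1.05% to 1.21% of the UMIs in fixed frozen and from 1.72% to 3.72% in paraffin replicates, without overlap. Their mean share rose from 1.13% ± 0.0466 to 2.49% ± 0.559 (exact permutation test, adjusted p = 2.33e-05). The class TEC, which GENCODE gives to transcribed regions still awaiting experimental evidence, rose from 0.367% ± 0.0641 to 1.16% ± 0.411 (exact permutation test, adjusted p = 2.33e-05). Its ranges, 0.275% to 0.523% and 0.406% to 1.84%, overlapped. Fresh-frozen sections held 2.13% of lncRNA and 1.75% of TEC UMIs, nearer to the paraffin than to the fixed frozen level. Within single regions the difference in lncRNA share was 1.77 percentage points in CA1 (exact permutation test, adjusted p = 0.0429), 1.06 in CA3 (adjusted p = 0.0571) and 1.24 in DG (adjusted p = 0.0686), where 4 replicates against 4 allow no raw p below 0.0286. With shares averaged over the regions for each replicate number, 4 against 4, the adjusted p of the exact permutation test was 0.049 for each of protein-coding genes, lncRNA, TEC, processed pseudogenes, snRNA, snoRNA and misc_RNA, and 0.0857 for miRNA.

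Processed pseudogenes, which are reverse-transcribed copies of messenger RNAs in the genome, rose from 1.30% ± 0.142 to 1.69% ± 0.238 (exact permutation test, adjusted p = 1.96e-04), although only 0.285% of UMIs in fresh-frozen sections were of this class. Small RNA classes were scarce but also moved. Models annotated as small nuclear RNAs, the RNAs of the spliceosome, rose from 0.00211% to 0.0221% of the UMIs (exact permutation test, adjusted p = 2.33e-05, 255 UMIs over the 24 replicates). Of these 380 models only 3 passed the filter on low counts, and 0 were called. Models of small nucleolar and Cajal body RNAs, guides of RNA modification, rose from 0.00196% to 0.0125% (exact permutation test, adjusted p = 3.50e-05, 153 UMIs). Only 1 of these 250 models passed the filter, and it was not called. The class misc_RNA rose from 0.000642% to 0.00421% on 54 UMIs (exact permutation test, adjusted p = 5.40e-04). Models annotated as miRNA genes fell from 0.0505% to 0.0221% (exact permutation test, adjusted p = 4.78e-04). Mitochondrially encoded mRNA (5.38% and 6.34%, adjusted p = 0.115), mitochondrial rRNA (2.28% and 2.03%, adjusted p = 0.319), mitochondrial tRNA (adjusted p = 0.279) and other pseudogenes (adjusted p = 0.403) did not pass the exact permutation test.

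**Figure D2:**
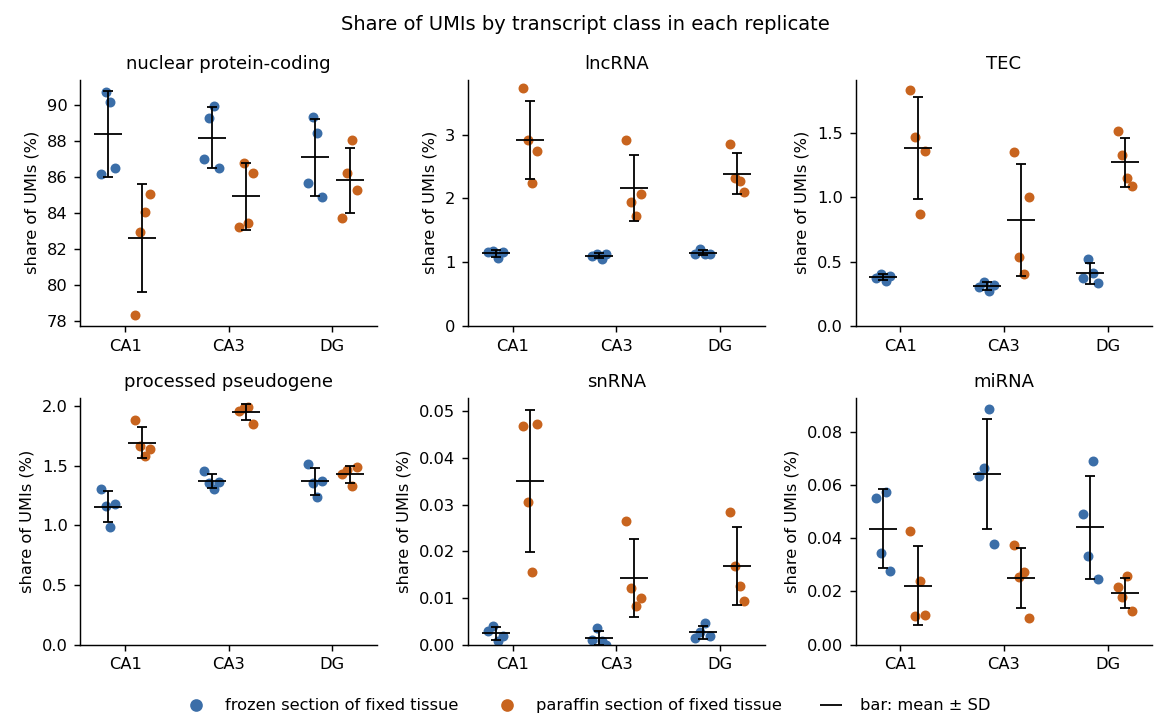
Percent of all UMIs of a replicate that fell on genes of 6 transcript classes (vertical axes, each with its own scale), by region, for fixed frozen (blue) and paraffin (orange) sections; points are replicates (4 per region and section type) and bars give the mean ± SD. LncRNA, TEC and snRNA shares sit higher and protein-coding and miRNA shares lower in paraffin over the 12 replicates of each type.

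Gene by gene, 140 of 525 tested lncRNAs were higher and 13 lower (median log2 fold change 0.74), and 158 of 384 TEC genes were higher and 3 lower (median 1.30). Among protein-coding genes 1241 of 10945 were higher and 1788 lower (median -0.04, with DESeq2 1505 higher and 1032 lower). Many lncRNA and TEC genes had few UMIs, and a gene near 0 in fixed frozen sections could pass the filter on low counts through its paraffin counts alone, so these counts of genes add no support to the shares. The TEC gene 9330162G02Rik had 102 to 348 CPM (median 220.5) in fixed frozen and 314 to 1183 CPM (median 945) in paraffin replicates (log2 fold change 1.74, SE 0.16, edgeR adjusted p = 2.33e-23), beside a median of 939.8 CPM in fresh-frozen sections. Gm44560, also TEC, had 0 to 18.4 CPM (median 5.36) and 0 to 175 CPM (median 88.0) (log2 fold change 3.94, SE 0.41, edgeR adjusted p = 6.58e-18). The TEC gene 4921527H02Rik had no UMI in any fixed frozen or in the median fresh-frozen replicate and 0 to 206 CPM (median 28.0) in paraffin, and it passed the filter through its paraffin counts alone. These 3 genes were low in fixed frozen and high in most paraffin replicates.

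Several of the largest increases belonged to 1 family of similar gene models, 89.8% to 93.4% identical to Gm10800, that resemble satellite DNA, the long tandem repeats found around mouse centromeres. The family was collected after its values had been seen, by sequence similarity to Gm10800, and has 12 genes in the table, of which 11 passed the filter on low counts. A run of 30 bases is shared by the transcripts of all 11 and was found in 12 of the 32515 genes of the table with a transcript. Stretches of 100 bases from 5 members on GRCm38, in GENCODE M21 transcripts and with the shared run in capitals, show how alike they are:

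Gm10800: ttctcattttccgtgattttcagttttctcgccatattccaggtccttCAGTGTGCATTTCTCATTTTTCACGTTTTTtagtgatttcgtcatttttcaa
Gm10801: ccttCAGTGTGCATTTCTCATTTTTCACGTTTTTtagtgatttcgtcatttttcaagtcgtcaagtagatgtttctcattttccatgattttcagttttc
ENSMUSG00000095280: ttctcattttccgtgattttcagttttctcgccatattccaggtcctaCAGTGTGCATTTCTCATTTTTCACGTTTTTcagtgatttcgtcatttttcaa
Gm10717: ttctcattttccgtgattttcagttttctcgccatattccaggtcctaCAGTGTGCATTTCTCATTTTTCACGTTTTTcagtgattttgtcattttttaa
Gm10722: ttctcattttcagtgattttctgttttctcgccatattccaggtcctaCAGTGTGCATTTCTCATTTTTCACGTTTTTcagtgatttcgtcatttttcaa

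Gm10800 lies at chr2:98666547-98667301 on the minus strand, Gm10801 at chr2:98662237-98664083 on the plus strand, ENSMUSG00000095280 at chr14:19415857-19418930 on the minus strand, Gm10717 at chr9:3025417-3033289 and Gm10722 at chr9:3000922-3002330, both on the plus strand. All 5 are annotated as protein-coding and the stretches are exonic. A read from one copy can be assigned to another, so that single members are uncertain and the sum is the safer measure. The summed level of the 12 genes was 792 to 2670.4 CPM (median 1237) in fixed frozen and 2188 to 31568 CPM (median 5967) in paraffin replicates, beside a median of 686 CPM in fresh-frozen sections. The ranges overlapped slightly. Paraffin CA1 stood highest, with 10524 to 31568 CPM (median 22286), followed by paraffin CA3 with 2509.9 to 12062 CPM (median 5593) and paraffin DG with 2188 to 5593 CPM (median 4263). All 11 tested members were higher in paraffin (median log2 fold change 2.69, range 2.22 to 3.86), and without the CA1 libraries 9 of 10 were. Members with few UMIs, such as Gm10721 (13 UMIs over the 24 replicates) and Gm10715 (26 UMIs), passed the filter mainly through their paraffin counts and the family was chosen by its values, so that these counts are a description and no support. Gm10801 rose from a median of 108 CPM (range 44.7 to 398) to 810.1 CPM (range 265 to 4247) (log2 fold change 3.23, SE 0.18, edgeR adjusted p = 6.37e-52). Gm10800 rose from a median of 631 CPM (range 388 to 1117) to 2791 CPM (range 1067 to 13895) (log2 fold change 2.44, SE 0.16, edgeR adjusted p = 1.79e-39). The size of the change differed between regions for 4 members, including Gm10800 (3.69 in CA1, 1.71 in CA3 and 2.0 in DG, edgeR interaction adjusted p = 2.79e-08).

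LncRNAs that stay in the nucleus were mostly higher in paraffin. The list of nuclear-retained lncRNAs has 18 entries, of which 13 passed the filter on low counts, and holds transcripts such as Neat1, which builds nuclear paraspeckles, Malat1 of nuclear speckles and the imprinted Meg3, Rian and Mirg. Of the 13, 10 were higher and 0 lower in paraffin, with a median log2 fold change of 1.81 against 0.02 for all genes. Their summed level was 1966 to 3406 CPM (median 2602) in fixed frozen and 7168 to 11609 CPM (median 9321) in paraffin replicates, without overlap, beside 8901 CPM in the median fresh-frozen replicate. Thus the paraffin level was near the fresh-frozen one and the fixed frozen level stood apart. Neat1 (chr19:5824708-5845478, minus strand) had 8.53 to 35.3 CPM (median 17.1) in fixed frozen and 100.2 to 414 CPM (median 217) in paraffin replicates (log2 fold change 3.38, SE 0.27, edgeR adjusted p = 4.22e-29). No paraffin replicate was as low as any fixed frozen one. Its log2 fold change was 3.57 (CA1), 3.22 (CA3) and 3.37 (DG). Meg3 (chr12:109541001-109571726, plus strand) rose from a median of 814 CPM (range 499 to 1332) to 3319 CPM (range 2132 to 4097) (log2 fold change 1.81, SE 0.14, edgeR adjusted p = 1.65e-30), again without overlap. Snhg11, a host transcript of small nucleolar RNAs abundant in neurons, rose from a median of 493 CPM (range 186 to 862) to 2138 CPM (range 1276 to 3433) (log2 fold change 2.1, SE 0.14, edgeR adjusted p = 2.10e-36). Malat1 rose from a median of 480.1 CPM (range 188 to 738) to 1846 CPM (range 167 to 4141) (log2 fold change 2.1, SE 0.16, edgeR adjusted p = 3.01e-30), with an overlap because the lowest paraffin replicate fell within the fixed frozen range. Rmst (3.15), Mirg (2.77), Miat (1.99), Rian (1.66), Kcnq1ot1 (1.39) and Ftx (0.91) were also higher on the log2 fold change scale. Jpx (0.13), Snhg14 (0.10) and Peg13 (-0.06) did not pass the test.

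Some messenger RNAs of nuclear RNA processing moved the same way. Of 120 splicing factors and nuclear RNA-binding proteins, 26 were higher and 13 lower (median 0.03), so the list as a whole stayed near the median of all genes. The serine and arginine rich splicing factors (Srsf genes) had 5 of 10 higher and 0 lower, with a median of 0.66, whereas Hnrnp genes had 3 of 18 higher and 1 lower (median -0.04) and Rbm genes 2 of 25 higher and 1 lower (median 0.03). With DESeq2, 37 of the 120 were higher and 6 lower. Snrnp70, a protein of the U1 spliceosomal particle, had 18.4 to 166 CPM (median 99.6) in fixed frozen and 175 to 569 CPM (median 386) in paraffin replicates, without overlap (log2 fold change 1.71, SE 0.17, edgeR adjusted p = 1.18e-18). Luc7l2, another U1-associated protein, rose from a median of 77.5 CPM (range 37.9 to 163) to 293 CPM (range 146 to 400.1) (log2 fold change 1.49, SE 0.18, edgeR adjusted p = 3.89e-13). Srsf11 rose from a median of 143 CPM (range 36.9 to 218) to 369 CPM (range 171 to 484) (log2 fold change 1.24, SE 0.17, edgeR adjusted p = 1.06e-10). For all 3 genes the fresh-frozen median, 447, 402 and 388 CPM in that order, was near the paraffin level.

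Oligodendrocytes wrap axons with myelin, and their marker genes were higher in paraffin in 17 of the 17 that passed the filter, of 18 listed, with a median log2 fold change of 1.5 (range 0.68 to 2.72). Their summed level was 2633 to 21114 CPM (median 6535) in fixed frozen and 7796 to 29668 CPM (median 18819) in paraffin replicates. The ranges overlapped, and the fixed frozen CA1 replicate 2 alone reached 21114 CPM, against 10212 to 11420 CPM in the other 3 replicates of its library. In fresh-frozen sections the median sum was 8354 CPM. Within regions the median log2 fold change was 0.71 (CA1), 1.70 (CA3) and 1.94 (DG). In a bulk measurement of a lit area, more cells of a type and more RNA captured per cell cannot be told apart, and the lit areas were set separately for each section. Mobp, a structural protein of compact myelin, had 45.9 to 1216 CPM (median 253) in fixed frozen and 576 to 2945 CPM (median 1275) in paraffin (log2 fold change 2.07, SE 0.16, edgeR adjusted p = 4.66e-30). Mbp, myelin basic protein, rose from a median of 874 CPM (range 455 to 3809) to 3771 CPM (range 1043 to 6382) (log2 fold change 1.66, SE 0.15, edgeR adjusted p = 1.29e-23). Ugt8a, an enzyme of myelin lipid synthesis, rose from a median of 79.1 CPM (range 36.7 to 271) to 401 CPM (range 100.2 to 768) (log2 fold change 2.09, SE 0.18, edgeR adjusted p = 1.39e-23). Car2, a carbonic anhydrase abundant in oligodendrocytes that is not on the list, rose from a median of 183 CPM (range 104 to 443) to 1234 CPM (range 607 to 2052) without overlap (log2 fold change 2.37, SE 0.16, edgeR adjusted p = 8.78e-39). Aspa (log2 fold change 2.72, SE 0.30, edgeR adjusted p = 6.39e-16), Anln (log2 fold change 2.60, SE 0.32, edgeR adjusted p = 1.80e-13) and Evi2a (log2 fold change 2.69, SE 0.30, edgeR adjusted p = 1.00e-15) were among the 10 largest increases that kept their sign in every region.

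Lists of other cell types were mixed or held few called genes. Over all genes 13.1% were higher and 15.1% lower. The higher endothelial and the lower microglial genes below were close to these shares, so single called members do not stand for their cell type. Astrocyte markers had 3 of 15 higher and 3 lower (median 0.17, with DESeq2 6 higher and 1 lower). Glutamine synthetase Glul rose from a median of 549.8 CPM (range 410.0 to 771) to 1188 CPM (range 586 to 1503) (log2 fold change 0.84, SE 0.14, edgeR adjusted p = 7.96e-08). The lipoprotein gene Apoe fell from a median of 414 CPM (range 148 to 723) to 186 CPM (range 83.5 to 523) (log2 fold change -0.94, SE 0.17, edgeR adjusted p = 6.43e-07). Microglial markers had 0 of 12 higher and 2 lower (median -0.81, with DESeq2 0 higher and 1 lower), among them the complement gene C1qc, which fell from a median of 24.1 CPM (range 0 to 63.5) to 0 CPM (range 0 to 8.97) (log2 fold change -3.33, SE 0.60, edgeR adjusted p = 1.12e-06). Of 15 endothelial and mural markers 2 were higher and 1 lower (median 0.57), and the glucose transporter Slc2a1 rose from a median of 46.5 CPM (range 10.2 to 90.7) to 149.9 CPM (range 41.8 to 233) (log2 fold change 1.43, SE 0.25, edgeR adjusted p = 4.33e-07). Among 6 meningeal markers only Ptgds, a prostaglandin D synthase also made by oligodendrocytes, was called, and it rose from a median of 452 CPM (range 159 to 743) to 1627 CPM (range 1067 to 2727) without overlap (log2 fold change 1.74, SE 0.15, edgeR adjusted p = 7.35e-26). The 1 tested erythrocyte marker, Hbb-bs, was not called (log2 fold change -0.56, SE 0.60, edgeR adjusted p = 0.518). Interneuron markers had 3 of 16 higher and 4 lower (median -0.54). The neuropeptide Cck fell from a median of 1074 CPM (range 507 to 1327) to 344 CPM (range 107 to 635) (log2 fold change -1.54, SE 0.15, edgeR adjusted p = 2.64e-19). The peptide Npy rose from a median of 74.1 CPM (range 29.8 to 143) to 196 CPM (range 62.7 to 322) (log2 fold change 0.98, SE 0.21, edgeR adjusted p = 4.53e-05). Genes used by all neurons had 3 of 15 higher and 7 lower (median -0.21).

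Choroid plexus markers had 3 of 6 tested genes higher and 0 lower (median 1.91, with DESeq2 0 higher and 0 lower), but their summed level, 0 to 2057 CPM (median 44.2) in fixed frozen and 0 to 9118 CPM (median 303) in paraffin replicates, rested on single replicates. The thyroxine carrier Ttr, the main transcript of choroid plexus epithelium, reached 8888 CPM in paraffin DG replicate 1, against 31.4 to 218 CPM in the other 3 replicates of that library, and 1976 CPM in fixed frozen CA3 replicate 1, against 191 to 398 CPM. Its log2 fold change was 4.11 (CA1), -0.08 (CA3) and 6.75 (DG) (edgeR interaction adjusted p = 1.15e-63). Without the DG libraries only 2 genes of the list passed the filter on low counts. Their median lay 0.53 below that of all genes (-0.53). The part of nearby choroid plexus tissue in these replicates was not tested.

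**Figure D3:**
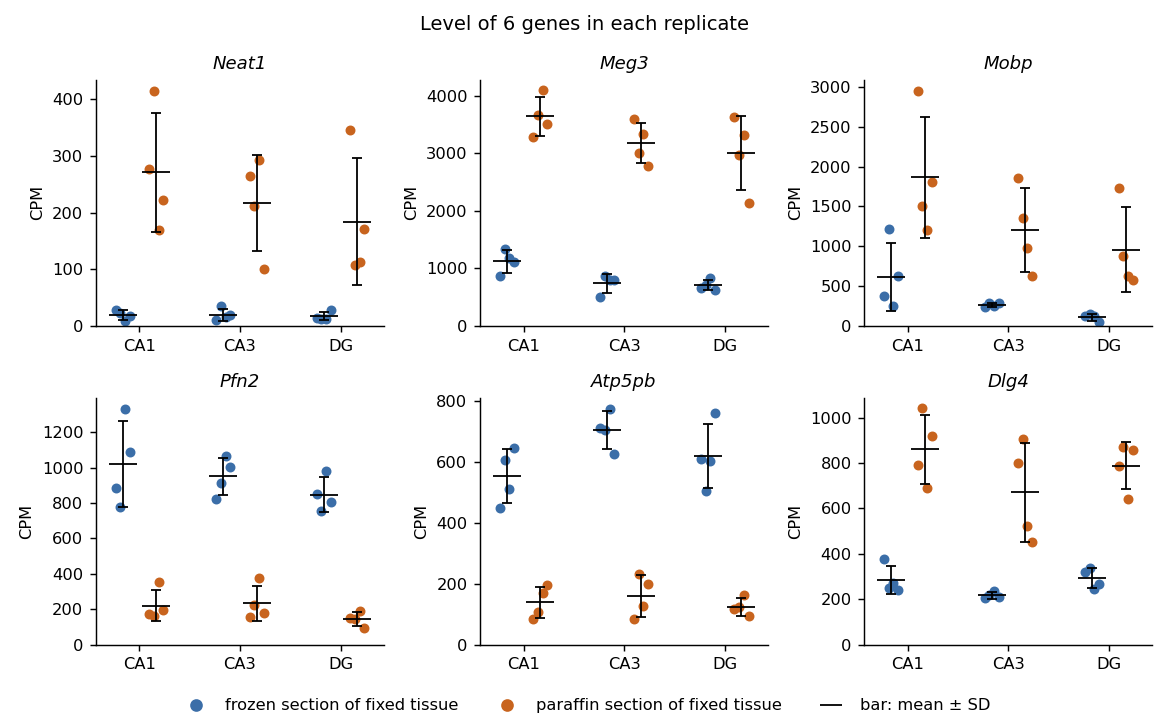
CPM of Neat1, Meg3, Mobp, Pfn2, Atp5pb and Dlg4 (vertical axes, each with its own scale) in each replicate, by region, for fixed frozen (blue) and paraffin (orange) sections; points are replicates (n = 4 per region and section type) and bars give the mean ± SD. The ranges of all 12 against all 12 replicates overlap for Mobp only, and Pfn2 and Atp5pb are lower and the other 4 genes higher in paraffin.

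Genes of the respiratory chain and the proteasome were mostly lower in paraffin on the TMM scale, beside single genes of other functions. The direction of change also went with the level of a gene, and the lists here and below were not matched for level. Whether a list fell more than other genes of its level was not tested. The largest single decreases with a mean of at least 5 UMIs and the same sign in every region included Pfn2 (chr3:57841895-57848079, minus strand), the neuronal profilin that regulates actin, which fell from a median of 897 CPM (range 752 to 1330.0) to 173 CPM (range 93.4 to 376) (log2 fold change -2.40, SE 0.16, edgeR adjusted p = 2.08e-38). No paraffin replicate reached the lowest fixed frozen one, and the log2 fold change was -2.30 (CA1), -2.23 (CA3) and -2.61 (DG). The fresh-frozen median of Pfn2, 822 CPM, was near the fixed frozen level. Cep19, a centrosomal protein, fell from a median of 102 CPM (range 39.1 to 166) to 15.1 CPM (range 0 to 31.1) without overlap (log2 fold change -2.70, SE 0.33, edgeR adjusted p = 3.04e-13). Spink8, a protease inhibitor expressed in CA1, fell from a median of 119 CPM (range 29.3 to 520.0) to 37.9 CPM (range 0 to 111) (log2 fold change -2.28, SE 0.26, edgeR adjusted p = 5.99e-15).

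Nuclear genes for subunits of the respiratory chain and ATP synthase, which make ATP on the inner mitochondrial membrane, were lower in 58 of 77 and higher in 0 (median log2 fold change -0.97). Their summed level was 19446 to 23709.9 CPM (median 20972) in fixed frozen and 7939.9 to 14759 CPM (median 11072) in paraffin replicates, without overlap, beside 11052 CPM in the median fresh-frozen replicate, which was near the paraffin level. The medians were -1.14 (CA1), -0.87 (CA3) and -0.91 (DG). All complexes took part, with 25 of 37 genes of complex I lower (median -0.96), 3 of 4 of complex II, 8 of 9 of complex III and cytochrome c (median -1.15), 8 of 10 of complex IV (median -0.89) and 14 of 17 of ATP synthase (median -0.96). Atp5pb, a stalk subunit of ATP synthase at chr3:105942698-105960099, minus strand, fell from a median of 618 CPM (range 449 to 775) to 125 CPM (range 82.7 to 232) (log2 fold change -2.30, SE 0.17, edgeR adjusted p = 1.15e-32). Atp5a1, a catalytic-head subunit, fell from a median of 1131 CPM (range 863 to 1487) to 296 CPM (range 207 to 420.1) (log2 fold change -1.99, SE 0.15, edgeR adjusted p = 3.60e-31). Ndufb11 of complex I fell from a median of 239 CPM (range 188 to 339) to 43.4 CPM (range 15.6 to 131) (log2 fold change -2.38, SE 0.22, edgeR adjusted p = 5.38e-22). The ranges of these 3 genes did not overlap. Messenger RNAs of the same complexes that are encoded in mitochondrial DNA did not follow on the TMM scale, with 0 of 11 called in either direction (median -0.16, with DESeq2 4 higher and 0 lower), a contrast between 2 groups that was described and not tested. mt-Nd4, for example, had 9493 to 21235 CPM (median 15666) and 12311 to 24759 CPM (median 17903) (log2 fold change 0.07, SE 0.14, edgeR adjusted p = 0.765). Counts of such abundant genes come nearer to the limit of 4096 UMIs in deeper replicates, and fixed frozen replicates had more UMIs (median 122520 against 67528). In fixed frozen CA1 these mRNAs took 7.05% of 54201 UMIs in replicate 4 and 3.56% of 180873 in replicate 2. In paraffin CA1 the share was lowest, 5.52%, in the replicate with fewest UMIs (35932). The part of this limit in the contrast was not tested.

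Proteasome subunits, which degrade ubiquitin-tagged proteins, were lower in 24 of 36 and higher in 0 (median -0.86). Their summed level was 3737 to 4869 CPM (median 4234) in fixed frozen and 1814 to 3112 CPM (median 2724) in paraffin, without overlap. The median fresh-frozen replicate had 2689 CPM, near the paraffin level. The core had 9 of 13 lower, the ATPases of the cap 5 of 6 and the other cap subunits 10 of 13, whereas 0 of 4 assembly chaperones were called. Psmb5, a catalytic core subunit, fell from a median of 146 CPM (range 36.9 to 246) to 7.53 CPM (range 0 to 58.3) (log2 fold change -2.64, SE 0.29, edgeR adjusted p = 6.84e-16). Its fresh-frozen median was 3.91 CPM. Psma2 fell from a median of 227 CPM (range 152 to 349) to 76.0 CPM (range 42.7 to 156) (log2 fold change -1.60, SE 0.20, edgeR adjusted p = 2.55e-12). Heat shock proteins and chaperonins, which fold other proteins, had 20 of 41 lower and 1 higher (median -0.73). Hspa2 fell from a median of 115 CPM (range 63.5 to 202) to 26.1 CPM (range 0 to 42.4) without overlap (log2 fold change -2.34, SE 0.28, edgeR adjusted p = 2.30e-13). The chaperonin subunit Cct3 fell from a median of 233 CPM (range 128 to 295) to 74.2 CPM (range 0 to 146) (log2 fold change -1.73, SE 0.21, edgeR adjusted p = 1.76e-13).

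Cytosolic ribosomal protein genes were lower in 39 of 79 and higher in 1 (median -0.58, with DESeq2 3 higher and 23 lower), with 22 of 46 of the large and 17 of 32 of the small subunit lower. Their summed level, 12500 to 20589 CPM (median 15855) and 10093 to 15496 CPM (median 13898), overlapped between section types. Rpl15 fell from a median of 97.9 CPM (range 71.9 to 258) to 21.4 CPM (range 0 to 56.5) without overlap (log2 fold change -2.37, SE 0.30, edgeR adjusted p = 3.18e-12). It has 10 similar genes, among them the processed pseudogenes Gm10224 (medians 31.4 and 48.4 CPM, edgeR adjusted p = 0.348) and Gm49594 (7.64 and 10.9 CPM, edgeR adjusted p = 0.384). The sum of Rpl15 with its copies was not taken. Rpl3 fell from a median of 329 CPM (range 232 to 641) to 183 CPM (range 50.1 to 252) (log2 fold change -1.33, SE 0.17, edgeR adjusted p = 3.64e-12). The exception, Fau, was no longer called without paraffin CA3 replicate 2 (log2 fold change 0.89 in place of 1.71). It is identical over 402 bases to the processed pseudogene Gm9843, and the sum of both was 156 to 314 CPM in fixed frozen and 27.8 to 373 CPM in paraffin replicates. Translation factors had 23 of 50 lower and 3 higher (median -0.64, with DESeq2 5 higher and 12 lower). Eif4h, a helper of the helicase that opens 5′ ends of mRNAs, fell from a median of 747 CPM (range 487 to 1004) to 263 CPM (range 125 to 363) without overlap (log2 fold change -1.61, SE 0.16, edgeR adjusted p = 3.19e-20). Glycolytic enzymes had 12 of 17 lower and 1 higher (median -0.78, with DESeq2 0 higher and 6 lower), among them Aldoa, which fell from a median of 1114 CPM (range 666 to 1807) to 617 CPM (range 256 to 1058) (log2 fold change -0.97, SE 0.14, edgeR adjusted p = 9.69e-10). Of 28 vacuolar and P-type ATPases 14 were lower and 4 higher (median -0.49). Atp6v1a, a catalytic subunit of the vesicle proton pump, fell from a median of 1977 CPM (range 1107 to 2576) to 534 CPM (range 235 to 854) without overlap (log2 fold change -1.86, SE 0.14, edgeR adjusted p = 1.36e-29). Atp1b3, a subunit of the sodium pump, rose from a median of 113 CPM (range 55.0 to 179) to 325 CPM (range 200.5 to 668), also without overlap (log2 fold change 1.41, SE 0.18, edgeR adjusted p = 1.10e-12).

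**Figure D4:**
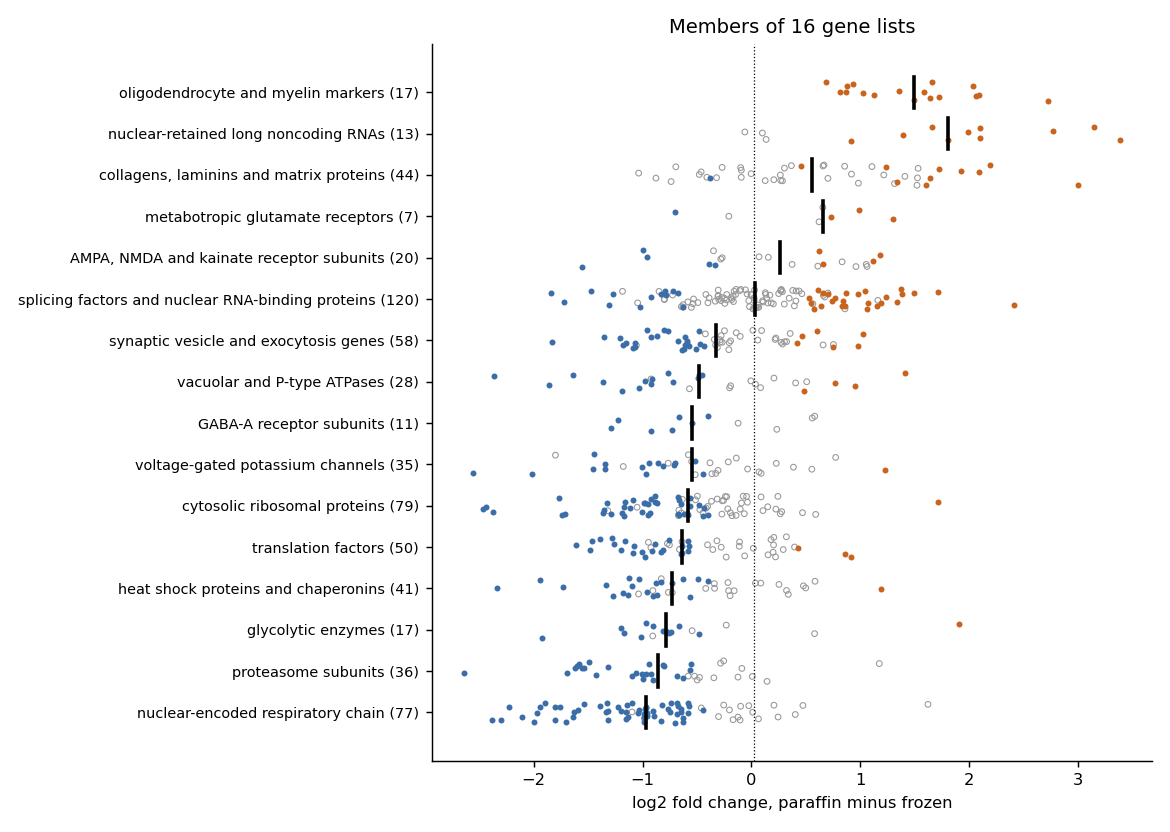
Log2 fold change of paraffin over fixed frozen sections (horizontal) for the tested genes of 16 lists (vertical); filled points are genes called by edgeR, open points genes not called, the black line is the list's median and the dotted line the median of all genes, 0.02. Nuclear-retained lncRNAs (median 1.81) and oligodendrocyte markers (1.5) lie to the right, and respiratory chain (-0.97) and proteasome genes (-0.86) to the left.

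Synaptic gene groups were mixed, with more decreases than increases in most on the TMM scale. Synaptic vesicle and exocytosis genes had 25 of 58 lower and 6 higher (median -0.32). The vesicle GTPase Rab3a fell from a median of 927 CPM (range 652 to 1229) to 408 CPM (range 251 to 664) (log2 fold change -1.21, SE 0.14, edgeR adjusted p = 8.28e-14). Synapsin Syn1 fell from a median of 440.1 CPM (range 188 to 829.8) to 173 CPM (range 42.7 to 481) (log2 fold change -1.35, SE 0.17, edgeR adjusted p = 2.93e-13). Subunits of the GABA-A receptor, the main inhibitory channel of the brain, had 7 of 11 lower and 0 higher (median -0.55). Voltage-gated potassium channels had 15 of 35 lower and 1 higher (median -0.55, with DESeq2 1 higher and 9 lower). Calcium, sodium and HCN channels had 8 of 25 lower and 2 higher (median -0.17, with DESeq2 3 higher and 3 lower). The sodium channel Scn2a fell from a median of 528 CPM (range 449.5 to 663) to 269 CPM (range 105 to 327) without overlap (log2 fold change -1.17, SE 0.16, edgeR adjusted p = 1.79e-11). The calcium channel Cacna1a rose from a median of 259.7 CPM (range 166 to 431) to 507 CPM (range 363 to 725) (log2 fold change 0.78, SE 0.15, edgeR adjusted p = 5.86e-06). Calmodulin, calcineurin and calcium sensor genes had 10 of 24 lower and 1 higher (median -0.32, with DESeq2 4 higher and 6 lower). Calm2 fell from a median of 2023 CPM (range 1563 to 3376) to 903 CPM (range 406 to 1443) without overlap (log2 fold change -1.38, SE 0.14, edgeR adjusted p = 2.77e-18). The calcineurin subunit Ppp3ca, 1 of the 10 most abundant genes, fell from a median of 7637 CPM (range 5795 to 11586) to 4968 CPM (range 3485 to 7709) (log2 fold change -0.79, SE 0.14, edgeR adjusted p = 3.36e-07).

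Glutamate receptors and postsynaptic genes leaned less to one side. AMPA, NMDA and kainate receptor subunits and their partners had 4 of 20 higher and 5 lower (median 0.26, with DESeq2 6 higher and 3 lower), and metabotropic glutamate receptors had 3 of 7 higher and 1 lower (median 0.66). Cacng2, the AMPA receptor partner stargazin, rose from a median of 169 CPM (range 51.2 to 303) to 363 CPM (range 195 to 546) (log2 fold change 1.12, SE 0.17, edgeR adjusted p = 4.56e-09). Grm5 fell from a median of 662 CPM (range 532 to 1057) to 493 CPM (range 272 to 779) (log2 fold change -0.70, SE 0.14, edgeR adjusted p = 2.80e-05). Of 35 postsynaptic scaffolds and dendritic mRNAs 11 were lower and 6 higher (median -0.22, with DESeq2 7 higher and 5 lower). Dlg4 (chr11:70016942-70047522, plus strand), the scaffold PSD-95, rose from a median of 246 CPM (range 204 to 377) to 796 CPM (range 451 to 1044) without overlap (log2 fold change 1.40, SE 0.15, edgeR adjusted p = 3.20e-17). Its fresh-frozen median was 189 CPM, near the fixed frozen level. Kif5a, a kinesin that carries cargo along axons and dendrites, rose from a median of 833 CPM (range 445 to 1421) to 2022 CPM (range 1457 to 2412) without overlap (log2 fold change 1.13, SE 0.14, edgeR adjusted p = 2.15e-13). Camk2a, a kinase whose mRNA is carried into dendrites, fell from a median of 1097 CPM (range 637 to 1586) to 702 CPM (range 555 to 902) (log2 fold change -0.82, SE 0.14, edgeR adjusted p = 1.58e-07). Tubulins, stathmins and microtubule-associated proteins had 17 of 38 lower and 6 higher (median -0.26, with DESeq2 6 higher and 11 lower), and G proteins and RGS proteins had 12 of 37 lower and 3 higher (median -0.19).

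Stress response genes had 7 of 19 higher and 0 lower, although their median was -0.12. The called members were abundant ones such as the ferritin heavy chain Fth1, which rose from a median of 1682 CPM (range 1401 to 2886) to 3123 CPM (range 1821 to 6086) (log2 fold change 0.68, SE 0.14, edgeR adjusted p = 1.41e-05). The metallothionein Mt1 rose from a median of 192 CPM (range 61.1 to 358) to 429 CPM (range 180.0 to 735) (log2 fold change 0.88, SE 0.16, edgeR adjusted p = 1.81e-06). Immediate early genes, which neurons switch on with activity, had 4 of 30 higher and 5 lower (median -0.20), shares close to 13.1% and 15.1% over all genes. Egr3 fell from a median of 94.6 CPM (range 56.5 to 148) to 23.2 CPM (range 0 to 62.8) (log2 fold change -1.75, SE 0.30, edgeR adjusted p = 1.97e-07). The clock gene Per1 rose from a median of 18.4 CPM (range 0 to 28.2) to 57.2 CPM (range 30.2 to 107) without overlap (log2 fold change 1.84, SE 0.37, edgeR adjusted p = 1.31e-05). Collagens, laminins and other matrix proteins had 10 of 44 higher and 1 lower (median 0.56), with 6 of 21 collagens higher and 0 lower (median 0.98), and these genes had few UMIs. Col11a1, for example, had 0 to 94.7 CPM (median 23) and 0 to 167 CPM (median 65.1) (log2 fold change 1.33, SE 0.35, edgeR adjusted p = 0.00118). Genes of translocation into the endoplasmic reticulum and of secretion had 10 of 31 lower and 2 higher (median -0.42, with DESeq2 3 higher and 4 lower), led by the signal peptidase subunit Spcs1, which fell from a median of 218 CPM (range 129 to 294) to 72.5 CPM (range 18 to 171) (log2 fold change -1.75, SE 0.21, edgeR adjusted p = 7.84e-14).

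Groups with a median near that of all genes were zinc finger proteins named Zfp, with 21 of 279 higher and 18 lower (median 0.03), smaller shares than 13.1% and 15.1% over all genes, and cadherins and protocadherins, with 10 of 52 higher and 5 lower (median -0.05). Lysosomal genes had 0 of 24 higher and 2 lower (median -0.20, with DESeq2 3 higher and 1 lower), cholesterol synthesis genes 2 of 21 higher and 4 lower (median 0.02, with DESeq2 4 higher and 3 lower), and ubiquitin and SUMO precursors 1 of 10 higher and 4 lower (median -0.55, with DESeq2 0 higher and 2 lower). Of 7 replication-dependent histones, whose mRNAs end in a stem loop and not in a poly(A) tail, 1 was higher and 1 lower (median 0.13), and of 10 polyadenylated histone variants 1 was higher and 2 were lower (median 0.23, with DESeq2 1 higher and 1 lower). Host transcripts of small nucleolar RNAs other than Snhg11, which was counted with the nuclear-retained lncRNAs, had 2 of 12 higher and 0 lower (median 0.15). The higher ones were close to the 13.1% over all genes. Of 1199 olfactory and vomeronasal receptor genes, which the hippocampus is not known to use, 11 passed the filter on low counts, and 4 of these were higher and 0 lower (median 0.95). Genes near zero in fixed frozen sections could pass that filter through their paraffin counts alone, so these 4 give no support for the group.

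The labels of the regions were checked against markers. The summed CA1 pyramidal markers were 811 to 1447 CPM (median 1200) in paraffin CA1 against at most 811 CPM in paraffin CA3 and 686 CPM in paraffin DG, and 2100.3 to 2749 CPM (median 2369) in fixed frozen CA1. The summed CA3 pyramidal markers were 1209 to 1604 CPM (median 1407) in paraffin CA3 and 1497 to 1769 CPM (median 1597) in fixed frozen CA3, and the summed DG granule cell markers 834 to 1447 CPM (median 1188) in paraffin DG and 2339 to 2586 CPM (median 2518) in fixed frozen DG. In each section type the median of each of these lists was thus highest in its own region, and the CA1 and DG lists were lower there in paraffin than in fixed frozen sections. Summed CA2 markers were highest in fixed frozen DG replicate 2 among the fixed frozen replicates (1576 CPM, median of all 723 CPM). The other fixed frozen DG replicates had 1202 to 1237 CPM. CA1 pyramidal markers had 4 of 8 lower and 0 higher (median -0.76), with a median of -1.20 within CA1, where 5 were lower. DG granule cell markers had 6 of 11 lower and 0 higher (median -1.03), with -1.51 within DG, where 6 were lower. CA3 markers had 2 of 10 lower (median -0.20, with DESeq2 0 higher and 0 lower), and CA2 markers 3 of 6 lower and 1 higher (median -0.72, with DESeq2 0 higher and 1 lower). Within CA1, Wfs1, a membrane protein of the endoplasmic reticulum and a CA1 marker that the study names, had 174 to 453 CPM (median 298) in fixed frozen and 0 to 139 CPM (median 31.9) in paraffin replicates (log2 fold change -1.95, SE 0.31, edgeR adjusted p = 2.10e-08 over all regions). The fresh-frozen CA1 replicates had 239 to 402 CPM (median 369.8). Ociad2, which the study names as a marker of CA1 and CA3, had 448 to 683 CPM (median 627) and 107 to 353 CPM (median 250.4) within CA1 (log2 fold change -0.90, SE 0.17, edgeR adjusted p = 2.14e-06 over all regions). For both genes the paraffin CA1 replicates lay below the fixed frozen ones. Dkk3, a secreted Wnt regulator and also a CA1 and CA3 marker in the study, did not pass the test (log2 fold change -0.20, SE 0.16, edgeR adjusted p = 0.352). Of the DG markers, the transcription factor Prox1 had 486 to 742 CPM (median 719.5) and 347 to 654 CPM (median 494) within DG, with overlap (log2 fold change -0.13, SE 0.19, edgeR adjusted p = 0.644 over all regions). Pdzd2 had 112 to 193 CPM (median 128) and 88.9 to 171 CPM (median 138) within DG (log2 fold change 0.23, SE 0.27, edgeR adjusted p = 0.569 over all regions). Calb1, calbindin of granule and CA1 cells, fell from a median of 96.4 CPM (range 55.3 to 518) to 26.3 CPM (range 0 to 171) (log2 fold change -1.92, SE 0.23, edgeR adjusted p = 4.51e-14).

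Within single regions fewer genes passed. In CA1 373 genes (3.06%) were higher and 726 (5.96%) lower in paraffin, in CA3 522 (4.28%) and 639 (5.24%), and in DG 756 (6.2%) and 926 (7.6%). The medians over all genes were -0.12 (CA1), 0.04 (CA3) and 0.02 (DG). The balance of directions within regions changed with scaling too, since 33.9% of the calls in CA1 were higher with TMM against 59.7% with DESeq2, 45.0% against 58.7% in CA3, and 44.9% against 57.4% in DG. Called in the same direction in each of the 3 regions were 119 higher and 249 lower genes. The size of the change differed between regions for 121 genes (0.993%) by edgeR's interaction test. Of the 6 genes with the smallest interaction p, 5 were pseudogenes that closely resemble an expressed gene, and the sixth was Ttr.

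The smallest p of all belonged to Gm28437, a pseudogene on chromosome 1 that is identical over 783 bases to the mitochondrial gene mt-Co3. Its level was 519.7 to 782 CPM (median 728) in fixed frozen CA1, 595 to 852 CPM (median 712) in CA3 and 3403 to 4835 CPM (median 3940.4) in DG. In paraffin it was 4453 to 5976 CPM (median 5425) in CA1, 2857 to 4497 CPM (median 3680.4) in CA3 and 336 to 583 CPM (median 449) in DG. The replicates of a library were thus alike and the libraries stood apart, with DG highest in fixed frozen and lowest in paraffin sections (edgeR interaction adjusted p = 8.69e-91). Over all regions its log2 fold change was 0.94, which turned to -0.39 without the CA1 libraries, -0.21 without those of CA3 and -0.07 with replicates of the same number summed over the regions. Added together, mt-Co3 and Gm28437 kept this pattern, since mt-Co3 itself had only 82.6 to 232 CPM (median 152) and 35.6 to 325 CPM (median 106). Of 11 nuclear copies of mitochondrial genes, which were collected after their values had been seen, 2 were higher and 2 lower over all regions (1 and 1 with DESeq2, 5 and 1 with its size factors) and 6 differed between regions. Gm29216 resembles mt-Co1. It was 4509 to 7027 CPM (median 5907) in fixed frozen CA3 against 326 to 439 CPM (median 367) in paraffin CA3. The log2 fold change of Gm29216 was -4.09 in CA3, -0.52 in CA1 and -0.54 in DG. Over all regions it was -1.72 (SE 0.18, edgeR adjusted p = 2.61e-17). Stretches of 60 bases on GRCm38, with bases that differ from mt-Co1 in capitals, show how little tells such a copy from the mitochondrial gene:

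mt-Co1: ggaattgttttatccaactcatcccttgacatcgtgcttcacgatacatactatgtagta
Gm29216: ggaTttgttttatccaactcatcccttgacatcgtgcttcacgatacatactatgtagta
Gm13340: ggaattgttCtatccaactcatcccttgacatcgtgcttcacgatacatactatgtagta

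mt-Co1 lies at chrM:5328-6872 on the plus strand, Gm29216 at chr1:24615706-24616197 and Gm13340 at chr2:22588103-22589647, both on the minus strand, and the stretches are exonic. Each copy differs from mt-Co1 at 1 of the 60 bases shown. Gm29216 is 99.8% identical to mt-Co1 over 483 bases, and the counting command of the study names no option for reads that match several places.

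Similar pairs occurred among nuclear genes. Tuba1a and Tuba1b, the main alpha tubulins, are 98.3% identical in the aligned part and moved in opposite directions, Tuba1a by -1.27 ± 0.17 (SE) and Tuba1b by 1.89 ± 0.19 on the log2 fold change scale. Tuba1b was 72.4 to 166 CPM (median 75.3) in fixed frozen CA1 and 0 to 70.6 CPM (median 28.7) in paraffin CA1, but 711 to 952 CPM (median 841) in paraffin CA3 and 713 to 960.2 CPM (median 805) in paraffin DG (edgeR interaction adjusted p = 3.86e-12). The sum of both genes was 166 to 939 CPM in fixed frozen and 83.5 to 1309.7 CPM in paraffin replicates. Rpl37rt, a retrotransposed copy of the ribosomal gene Rpl37, fell from a median of 1250.3 CPM (range 812 to 2057) to 406 CPM (range 139 to 1754) (log2 fold change -1.44, SE 0.16, edgeR adjusted p = 3.58e-15). The sum with Rpl37 overlapped, at 1398 to 3049 CPM and 1392 to 2331 CPM. Gm12346, a copy of the chaperone gene Hsp90aa1, had 0 to 22.1 CPM (median 1.63) in fixed frozen and 0 to 1515 CPM (median 41.1) in paraffin (log2 fold change 5.01, SE 0.38, edgeR adjusted p = 2.75e-31). Of 236 named genes with a transcript sequence, 50 had another gene at least 95% identical over at least 150 bases, and the division of reads between such pairs is uncertain.

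**Figure D5:**
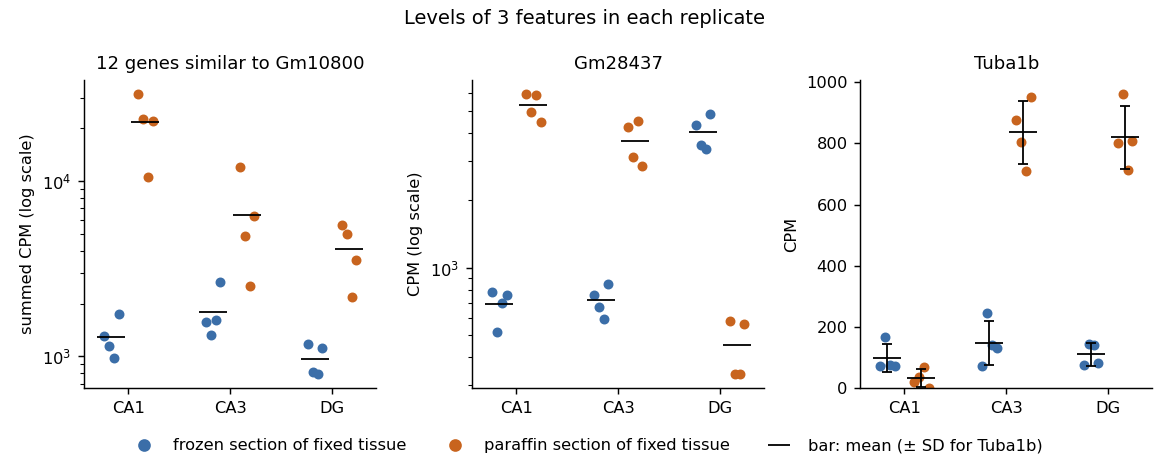
CPM in each replicate of the 12 genes similar to Gm10800 (summed, log axis), of Gm28437 (log axis) and of Tuba1b (linear axis), by region, for fixed frozen (blue) and paraffin (orange) sections; points are replicates (n = 4) and bars give the mean, with ± SD for Tuba1b. For Gm28437 the replicates of 1 library lie close together, and the order of the section types for Gm28437 in DG and for Tuba1b in CA1 is opposite to that in the other regions.

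The fall of the miRNA class rested on a few gene models. Of 5 tested, 3 were lower and 0 higher, and Mir703 and 3 models with similar sequences made up most of its UMIs. Mir703 fell from a median of 378 CPM (range 184 to 665) to 102 CPM (range 0 to 188) (log2 fold change -1.99, SE 0.18, edgeR adjusted p = 7.81e-22), beside a fresh-frozen median of 76.7 CPM. Its mature sequence in RefSeq, with the seed of bases 2 to 8 in capitals, is at chr5:98475616-98475636 on the minus strand of GRCm38:

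mmu-miR-703: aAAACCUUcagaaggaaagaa

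CEL-seq2 primes on poly(A), which mature miRNAs lack. The Mir703 model is 98.2% identical over 109 bases to Eef1a1, the translation elongation factor 1 alpha gene and one of the most abundant mRNAs of most cells, yet the counts held a median of 2.06 CPM for Eef1a1 in fixed frozen and 0 CPM in paraffin replicates. Whether the reads counted for Mir703 came from Eef1a1 was not tested.

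Transcript length went with the direction of change. Among protein-coding genes divided into 5 equal bins of annotated exonic length, the shortest (median 2018 bases) had a median log2 fold change of -0.33, with 155 higher and 501 lower. The longest (median 10758 bases) had 0.13, with 372 higher and 306 lower. Spearman's rho across genes was 0.19 for exonic length, 0.16 for the number of exons and 0.11 for the genomic span. It was 0.05 for the length of the 3′ UTR, 0.02 for GC content and 0.04 for the longest run of A in the exons. These are descriptions across genes of the same 6 libraries, in which length and level are related, and no test was made. Counts and medians of the length bins are given with TMM only and depend on the scaling.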

How the data were processed

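PIC libraries were made by CEL-seq2 from CA1, CA3 and DG of fixed paraffin and fixed frozen sections. The authors took barcodes and 6-base UMIs from the reads (UMI-tools 1.0.0), aligned reads to GRCm38 with HISAT2 2.1.0, assigned them with featureCounts 1.6.4 and counted different UMIs per gene; these versions come from the submitters' processing notes, which also name DESeq2 1.20.0. The authors deposited raw UMI counts, without normalization, for 32546 genes in 48 replicates. The annotation release is not given in the sources used here, and the published counting command names no option for strand or for reads with several matches. A table of barcodes was not used.

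Replicates were grouped by their labels, with 12 per section type and 35932 to 307145 UMIs each, and floors cover counting error only. Counts of the 24 replicates were fitted with edgeR 4.0.16 in R 4.3.3 (TMM, quasi-likelihood test, region as a covariate, genes with at least 10 UMIs in all, Benjamini-Hochberg adjustment over all 12189 genes, called at an adjusted p under 0.05), and a fit of 6 group means gave within-region and interaction tests. Log2 fold changes are paraffin over fixed frozen. Their SE was derived from the test, as the absolute log2 fold change divided by the square root of the F statistic. CPM were UMIs scaled by the replicate's total, not by length. Class shares were compared by two-sided exact permutation within regions (343000 arrangements). Gene lists were described by counts and medians without a set test. Counts of 11778 genes were simulated with 1 dispersion for all genes, no effect of region and independent replicates. Changes were placed only in genes with an expected mean of at least 5 UMIs. Of these, 73% of 2-fold and 100% of 4-fold changes over all regions were recovered. Changes in genes with fewer UMIs were not simulated.

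Exons and positions came from GENCODE M21 (GRCm38), which held 32530 of the gene identifiers. Classes came from the gene types in the authors' counts, and from GENCODE M21 where these were blank. In the authors' counts 750 genes had no gene type and 773 no symbol. With GENCODE M21, 16 genes were left without a gene type. Sequences were compared with blastn 2.17.0, and 24 genes shared a symbol with another. Python 3.11.15, pandas 2.3.3, numpy 2.4.6, scipy 1.17.1 and matplotlib 3.10.9 were also used. Genes named are the 10 largest called changes in each direction (1 sign throughout the regions, 5 or more UMIs on average), the 10 most abundant genes, up to 4 genes of smallest p per list and class, the 6 of smallest interaction p and 5 markers the study names. Other genes were named after their values were seen. Some genes that this rule names are not reported here. Members and lists were chosen with earlier results of these data known.

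Alternatives were DESeq2 1.42.0, its size factors in edgeR, total UMIs, no mitochondrial genes, no filter, filterByExpr, a block for the replicate number, random thinning to 35932 UMIs, a correction for UMIs drawn more than once among 4096, summed libraries, sums or averages over the regions for each replicate number (chosen after seeing the data), and leaving out each replicate or region.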

Additional observations from a re-analysis of the deposited data

Results flagged for a closer look

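Single replicates stood apart from the other 3 of their library in 16 of 198 values examined, where chance alone gives about 1 in 20. The share of lncRNA was 1.06% in fixed frozen CA1 replicate 3, against 1.16% to 1.18%, and 1.21% in fixed frozen DG replicate 2, against 1.13% to 1.14%. The share of mitochondrial rRNA was 1.98% in paraffin CA3 replicate 1, against 1.18% to 1.29%. Summed CA2 markers reached 1576 CPM in fixed frozen DG replicate 2 and summed CA3 markers 704 CPM in paraffin DG replicate 3. Oligodendrocyte markers summed to 21114 CPM in fixed frozen CA1 replicate 2, against 10212 to 11420 CPM.

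Choroid plexus markers summed to 2057 CPM in fixed frozen CA3 replicate 1, against 205 to 407 CPM, and to 9118 CPM in paraffin DG replicate 1, against 53.8 to 265 CPM. Ttr made up most of both sums, with 1976 CPM and 8888 CPM. Erythrocyte markers summed to 111 CPM in fixed frozen CA1 replicate 4, 20.9 CPM in paraffin CA3 replicate 3 and 53.8 CPM in paraffin DG replicate 3. Interneuron markers were low in paraffin DG replicate 1 (1119 CPM against 1769 to 1856 CPM). Pan-neuronal genes reached 8085 CPM in fixed frozen DG replicate 3, and Rpl37rt reached 311 CPM in paraffin CA1 replicate 3, against 139 to 162 CPM.

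The change between section types differed between regions, by edgeR's interaction test, for the named genes given here. The edgeR adjusted p was 8.69e-91 for Gm28437, 8.47e-32 for Gm28661, 7.55e-30 for Gm29216 and 2.44e-17 for Gm10925, which are nuclear copies of mitochondrial genes. It was 8.37e-19 for Rpl37rt, 6.24e-05 for Gm14336, 0.0141 for Gm16416, 0.0266 for Sms-ps and 0.0364 for Gm12346, which are copies of nuclear genes. Of the satellite-like genes, Gm10717 had 2.77e-10, Gm10800 2.79e-08 and Gm10801 0.000128. The tubulin Tuba1b had an edgeR adjusted p of 3.86e-12, Sumo2 3.82e-09, Calm2 0.00212 and the lncRNA ENSMUSG00000097312 6.51e-06. Among myelin genes Mobp had 0.00143 and Mbp 0.0496, and Ttr had 1.15e-63. Each region and section type is 1 library, so the region cannot be told apart from the library in these values.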

How the results depend on the processing

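Over all regions the count of called genes, 3437, fell to 1822 with filterByExpr (913 higher, 909 lower, of 3455 tested genes), 1416 after random thinning to the smallest total (839 and 577, of 8922) and 1847 without the DG libraries (836 and 1011, of 10122), settings that by construction test fewer genes or use fewer UMIs. DESeq2 called 1049 lower genes, and 1070 were lower without the CA1 libraries. For these 2 counts the cause was not tested. Within CA1, 419 genes were called after thinning (224 higher, 195 lower), DESeq2 called 328 lower, its size factors in edgeR 561 higher and 376 lower, and filterByExpr 406 lower. Within CA3 thinning gave 328 (171 and 157) and DESeq2 377 lower. Within DG thinning gave 305 (165 and 140), and DESeq2 and filterByExpr each gave 551 lower. Thinning gave 38 interaction calls in place of 121.

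The replicate number as a block gave 3365 calls over all regions (1532 higher, 1833 lower). Same-numbered replicates of the 2 section types deviated together weakly at most, with correlations of -0.0016 to 0.065 over 4437 genes (median 0.022, against -0.0080 for other numbers) and 8 of 12 fixed frozen replicates closest to their own number. No pair exceeded 0.1, so the numbers were not taken as pairs. Across the regions of 1 section type same-numbered replicates did deviate together, and sums over the regions for each number, 4 against 4, an alternative chosen after seeing the data, gave 3041 calls. Thinning with this block gave 1386 calls over all regions (808 and 578), 427 in CA1 (221 and 206), 356 in CA3 (176 and 180), 323 in DG (167 and 156) and 45 for the interaction. The block moved no other count by over 1.5 times.

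Leaving out 1 replicate gave 3047 to 3415 calls over all regions (1387 to 1723 higher, 1546 to 1847 lower), 648 to 1120 in CA1 (228 to 423, 403 to 742), 757 to 1190 in CA3 (311 to 555, 400 to 676), 1057 to 1717 in DG (459 to 849, 598 to 954) and 92 to 134 for the interaction. Counts moved by over 1.5 times without paraffin CA1 replicate 1 (648 in all) or replicate 2 (248 higher), fixed frozen CA1 replicate 2 (438 lower) or replicate 3 (228 higher), paraffin CA3 replicate 1 (757 in all), fixed frozen CA3 replicate 2 (409 lower) or replicate 3 (400 lower), paraffin DG replicate 1 (1057 in all) and fixed frozen DG replicate 3 (607 lower). Of 195 called named genes, 19 lost the call without some replicate and 0 changed sign.

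With 4 replicates against 4, several class shares no longer passed the exact permutation test within a region. The differences, in percentage points for CA3 and DG, were -3.26 and -1.27 for protein-coding genes, 1.06 and 1.24 for lncRNA, 0.515 and 0.861 for TEC, 0.578 and 0.0589 for processed pseudogenes, 0.0129 and 0.0142 for snRNA, 0.00727 and 0.00688 for snoRNA, and 0.00223 and 0.00327 for misc_RNA. For miRNA they were -0.0214 (CA1), -0.0390 (CA3) and -0.0246 (DG), and -0.0284 with shares averaged over the regions for each replicate number. Other pseudogenes passed within CA1 (0.799), and mitochondrial rRNA passed after the correction for repeated UMIs (-1.08).

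Signs turned for Gm28437 without CA1 (-0.39) or CA3 (-0.21) and with sums over the regions (-0.0687). They also turned for the median of mitochondrial rRNA genes relative to all genes after thinning (0.0415) and without CA3 (0.0673) or DG (0.0375). The same held for CA2 markers after thinning (0.14) and for choroid plexus markers without DG (-0.53, with 2 genes tested). In all, the median relative to all genes turned sign under some alternative in 20 of 50 groups, such as stress response genes with DESeq2 (0.03), thinning (0.09) and without CA1 (0.33) or CA3 (0.39), postsynaptic scaffolds after thinning (0.004), immediate early genes without DG (0.02), mitochondrially encoded mRNAs without DG (0.10) and nuclear copies of mitochondrial genes without CA3 (-0.48). The cause was not tested. Depth limits single genes, since a count of 0 allows 9.77 to 83.5 CPM.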

Other observations

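Single lncRNAs and pseudogenes changed strongly in few libraries. The lncRNA ENSMUSG00000097312 had 0 to 42.3 CPM (median 10.6) in fixed frozen and 17.9 to 1302 CPM (median 108) in paraffin replicates (log2 fold change 3.81, SE 0.31, edgeR adjusted p = 2.59e-27), with log2 fold changes of 6.44 (CA1), 1.33 (CA3) and 2.88 (DG). The processed pseudogene Gm14336 had 0 to 15.7 CPM (median 0) and 0 to 774 CPM (median 5.63) (log2 fold change 4.62, SE 0.40, edgeR adjusted p = 3.45e-24), and Gm16416 had 0 to 422 CPM (median 0) and 0 to 16.5 CPM (median 0) (log2 fold change -5.05, SE 0.58, edgeR adjusted p = 1.24e-14). Both are over 95% identical to BC004004, so that reads of one can be assigned to another.

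Genes not named above also moved, among them members of groups described above. Gna12, a G protein alpha subunit, rose from a median of 12.3 CPM (range 0 to 29.3) to 61.6 CPM (range 0 to 212) (log2 fold change 2.06, SE 0.36, edgeR adjusted p = 4.00e-07). The calcium channel subunit Cacna2d2 rose from a median of 6.78 CPM (range 0 to 29.8) to 53.0 CPM (range 0 to 237) (log2 fold change 2.95, SE 0.39, edgeR adjusted p = 1.97e-11), and the zinc finger gene Zfp106 fell from a median of 90.6 CPM (range 73.8 to 204) to 29.0 CPM (range 0 to 64.0) without overlap (log2 fold change -1.96, SE 0.29, edgeR adjusted p = 2.06e-09). Ywhab, a 14-3-3 adaptor protein among the 10 most abundant genes, fell from a median of 3875 CPM (range 2294 to 5227) to 2562 CPM (range 1686 to 3579) (log2 fold change -0.77, SE 0.14, edgeR adjusted p = 6.55e-07).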
